A study of Homo sapiens with 9 samples.

Results

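The amyloid precursor protein (APP), its relatives APLP1 and APLP2, and the secretases that cut them were followed in IMR-32 cells, a human neuroblastoma line, that expressed a form of choline acetyltransferase (ChAT), the enzyme that makes acetylcholine. The members were the 9 genes APP, APLP1, APLP2, BACE1, BACE2, ADAM10, ADAM17, PSEN2 and NCSTN, taken as every probe set whose only annotated gene symbol was one of these. They are 9 of the 11963 genes that a tested probe set names alone, and came to 23 probe sets of the 22215 tested: 3 for APP, 1 for APLP1, 7 for APLP2, 1 each for BACE1 and BACE2, 3 each for ADAM10, ADAM17 and PSEN2, and 1 for NCSTN. Single-channel oligonucleotide arrays measured total RNA from 3 groups of 3 arrays: IMR-32 cells stably expressing 69-kDa ChAT, IMR-32 cells stably expressing 82-kDa ChAT, and arrays labelled wild-type IMR-32 without a transgene. The question was which genes either form changes and whether the forms differ. The design text calls the 3 arrays of a group biological replicates. Since a separate line expressed each form, effects of the form and of the line cannot be told apart, and the labels give no number of clones.

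APP is a membrane protein of neurons and many other cells, and APLP1 and APLP2 share its large extracellular part and its short cytoplasmic tail. Alpha-secretases of the ADAM family (ADAM10 and ADAM17) shed the extracellular part by cutting inside the amyloid-beta stretch of APP, while the beta-secretase BACE1 cuts at its start. Gamma-secretase, a complex built around a presenilin such as PSEN2 with nicastrin (NCSTN) and smaller subunits, then cuts the remaining stub within the membrane. In neuroblastoma cells and neurons these enzymes also cut Notch receptors, cadherins, neural adhesion molecules and growth factor precursors.

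Before the results, the labels were checked. IMR-32 is known for its amplified MYCN oncogene, which 3 probe sets measured, and the brightest of them read 4181 to 5947 in the 69-kDa line and 4301 to 6118 in the 82-kDa line, against 62.5 to 120.5 on the arrays labelled wild type. Of 14 measured neuroblastoma and sympathoadrenal markers, 10 were higher in each line than on the arrays labelled wild type and 0 lower. TH, DBH, GATA2 and STMN2 did not pass in either line in this fit. Over all genes, each by its brightest probe set, 11.7% were higher and 17.7% lower in the 69-kDa line. In the 82-kDa line the shares were 11.8% and 18.5%. The summed intensity of these markers, the bright MYCN among them, was 11207 to 18666 in the 69-kDa line and 14296 to 20795 in the 82-kDa line, against 1979 to 2219 in wild type. Of 10 epithelial markers, 7 were lower in each line and 0 higher, with summed intensities of 468 to 545 and 478 to 566 in the lines, against 6418 to 7244 in wild type. The lowest value of any probe set was 14.9 to 15.9 on the 9 arrays, so no marker was at 0. In all, 7 of the 10 epithelial markers lay under the lower quartile of their array on all 3 arrays of the 69-kDa line, 6 did so in the 82-kDa line and 2 in wild type. Of 7 measured mesenchymal and Schwann cell markers 0 rose and 1 (FN1) fell in the 69-kDa line, and 0 rose and 2 (FN1 and VIM) fell in the 82-kDa line, VIM no longer without any of 7 arrays, all 6 of the 82-kDa line and wild type among them (adjusted p up to 0.1276). Once the replicate block was in the fit, 11 of the neuroblastoma markers were higher in the 69-kDa line (DBH in addition, adjusted p = 0.045), COL1A1 and COL1A2 rose (adjusted p = 0.039 and 0.021) and VIM fell (0.027) in the 69-kDa line, and COL1A2 rose (0.014) in the 82-kDa line. None of the 3 measured blood cell markers passed in either comparison without the block, and HBB rose in the 82-kDa line with it (adjusted p = 0.0045). The label of the wild-type arrays is therefore in doubt, and every difference from wild type given here is a difference from these arrays; the part of cell identity in it cannot be told apart from that of ChAT. CHAT itself read 256, 175 and 177 in the 69-kDa line and 1066, 423 and 1067 in the 82-kDa line, against 148, 125 and 114 in wild type, and passed the test only in the 82-kDa line (limma adjusted p = 0.23 and 0.00057).

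The upstream regions of the APP relatives and the alpha-secretase that were higher in both lines are shown because these members moved together. Each is the 250 bases before the annotated start of the gene, 5′ to 3′ on its own strand, from RefSeq (GRCh38.p14): ADAM10 at chr15:58749708-58749957, minus strand, APLP1 at chr19:35868324-35868573, plus strand and APLP2 at chr11:130070318-130070567, plus strand. Capitals mark CACGTG, the palindromic E-box that MYC-family proteins can bind, and GGGCGG, the GC box of SP1-type factors, on either strand.
ADAM10: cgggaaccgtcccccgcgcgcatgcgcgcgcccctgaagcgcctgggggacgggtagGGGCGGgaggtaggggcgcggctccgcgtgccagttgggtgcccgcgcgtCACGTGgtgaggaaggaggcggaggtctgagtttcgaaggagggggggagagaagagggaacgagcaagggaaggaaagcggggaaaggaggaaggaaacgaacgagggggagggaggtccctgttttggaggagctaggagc
APLP1: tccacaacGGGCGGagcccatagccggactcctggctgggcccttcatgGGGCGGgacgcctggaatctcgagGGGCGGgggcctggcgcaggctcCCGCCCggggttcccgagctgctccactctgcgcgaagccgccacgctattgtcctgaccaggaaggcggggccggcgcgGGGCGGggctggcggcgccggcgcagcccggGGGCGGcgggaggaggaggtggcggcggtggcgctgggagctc
APLP2: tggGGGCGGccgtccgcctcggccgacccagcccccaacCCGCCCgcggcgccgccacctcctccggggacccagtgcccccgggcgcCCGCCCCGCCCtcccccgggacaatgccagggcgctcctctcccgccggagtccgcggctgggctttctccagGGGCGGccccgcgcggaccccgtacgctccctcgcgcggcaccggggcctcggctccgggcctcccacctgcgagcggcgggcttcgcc
CACGTG stood once in the ADAM10 window, its first base 143 bases before the start, and in no window of the other 7 members with an entry, against 6.34% of the 35116 windows of this length. GGGCGG stood in the windows of 6 of these 8 members (APLP1, APLP2, BACE1, ADAM10, ADAM17 and PSEN2), against 42.6% of all windows. A member was counted if any of its windows matched, and APP and BACE1 had several, while the percentages are of single windows. BACE2 had no entry. The APLP1 window held 6 copies, the APLP2 window 5 and the ADAM10 window 1. The GC content was 77.2% for APLP1, 82.4% for APLP2 and 68.4% for ADAM10, against a median of 58.0% over all windows. In all, 12 short sequences were searched on both strands. Of the rest, TATAAA matched only a window of APP (10.7% of all windows), GCGC matched 7 members (53.4%), CANNTG, which takes in CACGTG, 5 (61.8%), the AP-2 motif 4 (18.6%) and the ZNF143 motif 1, BACE1 (1.79%). CCAAT (32.0%), TGACTCA (4.2%), TGACGTCA (1.65%), CCATNTTG (3.12%) and TTTGCAT (3.94%) matched 0 members. Such matches describe the letters of these windows and do not show that a factor binds there.

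Against the arrays labelled wild type, the 69-kDa line had higher levels of ADAM10, APLP1, part of the APLP2 probe sets, 1 APP probe set and 1 ADAM17 probe set, and a lower level of BACE2. The 82-kDa line had higher levels of ADAM10, APLP1 and most APLP2 probe sets, and a lower level of BACE2. In the 69-kDa line 9 of the 23 member probe sets rose and 1 fell (43.5%), where 26.2% of all probe sets were called, 10.9% as higher and 15.3% as lower. In the 82-kDa line the counts were again 9 and 1, where 26.8% of all probe sets were called, 11.0% as higher and 15.7% as lower. With the replicate number as a block, 13 member probe sets were higher and 2 lower in each comparison. The block called 36.5% of all probe sets in the 69-kDa line (16.6% higher, 19.9% lower) and 38.2% in the 82-kDa line (17.9% higher, 20.3% lower). The share called was thus above the background in both, with no test made of that difference, and 19 of the 23 probe sets belong to genes measured more than once, so the probe sets are not independent. The background was higher, and the gap to it smaller, once dim probe sets (mean log2 not above the median) were left out. Then 52.6% of the member probe sets kept were called in the 69-kDa line, against 37.4% of all. In the 82-kDa line the shares were 47.4% and 37.9%. Calls are from limma on log2 intensities with a Benjamini-Hochberg adjusted p under 0.05 over all probe sets. For 13 member probe sets no 69-kDa array overlapped a wild-type array, where 43.7% of all probe sets behaved so. For the 82-kDa arrays there were 15 such member probe sets, against 42.3% of all probe sets. The median log2 difference of the member probe sets was 0.36 and 0.34, against 0.06 over all probe sets in either comparison. Both comparisons share the 3 arrays labelled wild type. In bulk RNA, fewer cells carrying a transcript and less of it per cell cannot be told apart.

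**Figure D1:**
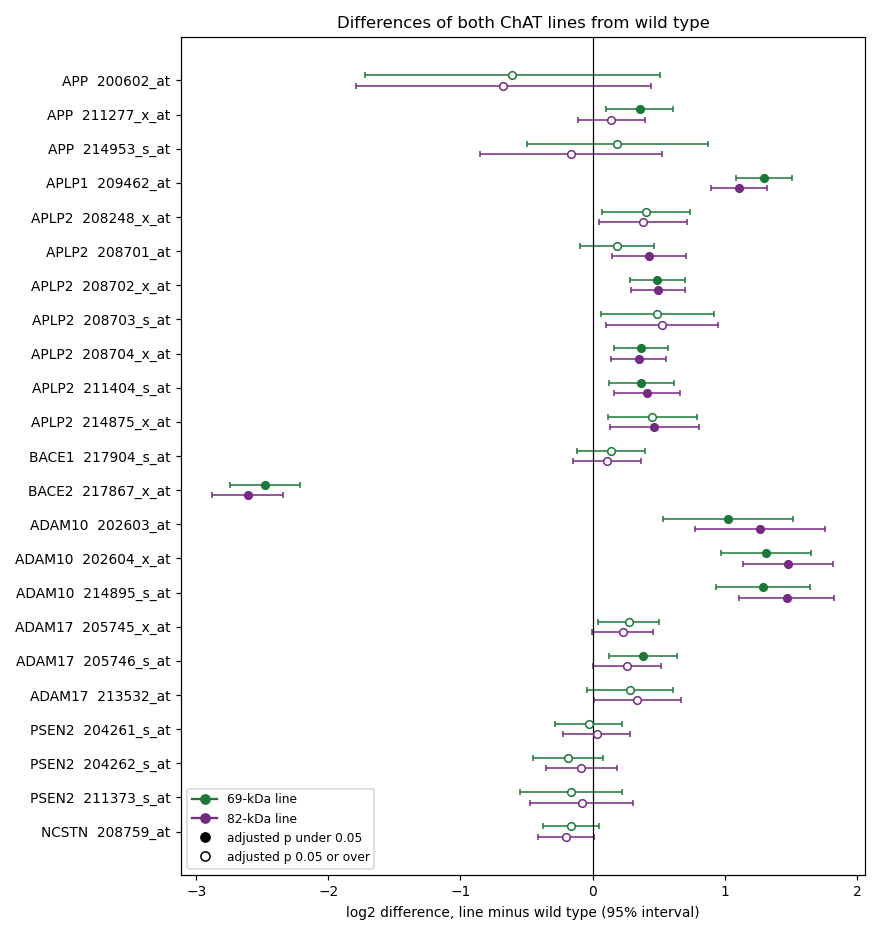
Log2 difference (x axis, line minus wild type, with its 95% interval from limma) of each of the 23 member probe sets (rows) in the 69-kDa line (green) and the 82-kDa line (purple); filled points have an adjusted p under 0.05. BACE2 stands alone to the left at -2.48 and -2.61, and the ADAM10 and APLP1 probe sets lie between 1.02 and 1.48, while the PSEN2 and NCSTN intervals all take in 0.

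APLP1, an APP relative made mainly in neurons, was measured by 209462_at. It read 576, 565 and 496 in the 69-kDa line (replicates 1 to 3) and 496, 467 and 471 in the 82-kDa line, against 243, 205 and 219.7 on the arrays labelled wild type. Every array of both lines was thus above every wild-type array. On the log2 scale the means were 9.09 ± 0.12 and 8.90 ± 0.05 in the lines and 7.79 ± 0.12 in wild type (SD, n = 3 each). The level was 2.45-fold higher in the 69-kDa line (log2 difference 1.29, SE 0.09, limma adjusted p = 1.7e-05) and 2.15-fold higher in the 82-kDa line (1.11, SE 0.09, adjusted p = 4.4e-05). Both calls held under all 19 other settings of the fit that were tried.

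APLP2, the more widely expressed relative, was measured by 7 probe sets, and all 7 were above wild type on average in both lines. The probe set 208702_x_at had the smallest adjusted p of the 7. It read 1580.1, 1812 and 1726 in the 69-kDa line and 1641, 1624 and 1859.7 in the 82-kDa line, against 1168, 1187 and 1285 in wild type. No line array overlapped a wild-type array, and the log2 difference was 0.49 (SE 0.09) in each line, which is 1.40-fold and 1.41-fold (limma adjusted p = 0.0036 and 0.0035). The probe sets 208704_x_at and 211404_s_at also rose in both lines, by 0.37 each in the 69-kDa line (adjusted p = 0.016 and 0.036) and by 0.35 and 0.41 in the 82-kDa line (adjusted p = 0.0204 and 0.023). In the 82-kDa line 208701_at (0.42, adjusted p = 0.032) and 214875_x_at (0.47, adjusted p = 0.045) passed as well. In the 69-kDa line these stood at 0.18 (adjusted p = 0.33) and 0.45 (adjusted p = 0.052). Apart from 208702_x_at, whose calls held under all 18 other settings that kept it, these calls depended on single arrays and on 1 or 2 of the other settings each. Quantile normalization ended both calls of 208704_x_at (adjusted p up to 0.09042 in the 82-kDa line). Median centring ended both calls of 211404_s_at and that of 214875_x_at, and a trended, robust variance ended the 69-kDa call of 211404_s_at and the call of 214875_x_at. Fitting only the 6 arrays compared, or array weights, ended that of 208701_at. In the 69-kDa comparison 208704_x_at did not pass without replicate 2 or 3 of that line or replicate 1 of wild type (adjusted p up to 0.07243), and 211404_s_at not without those, replicate 2 of the 82-kDa line or replicate 2 of wild type (up to 0.1316). In the 82-kDa comparison 208704_x_at needed replicate 3 of that line and replicate 1 of wild type (up to 0.06647), and 211404_s_at needed replicates 2 and 3 of that line and replicates 1 and 2 of wild type (up to 0.08359). There 208701_at failed without any 1 of 5 arrays (replicate 2 of the 69-kDa line, replicates 1 and 3 of the 82-kDa line, replicates 2 and 3 of wild type, up to 0.1076). For 214875_x_at this held for 7 arrays, all but replicate 1 of the 69-kDa line and replicate 3 of wild type (up to 0.1392).

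The remaining APLP2 probe sets, 208248_x_at and 208703_s_at, differed by 0.41 and 0.49 in the 69-kDa line (limma adjusted p = 0.076 and 0.093) and by 0.38 and 0.52 in the 82-kDa line (0.089 and 0.072). The replicate block made them pass in the first comparison (adjusted p = 0.0138 and 0.0078) and in the second (0.0171 and 0.0057). The block also let 214875_x_at pass in the 69-kDa line (adjusted p = 0.0090). The dim 208701_at, at 76.0 to 121 over all arrays, was the odd probe set of the 7. Its log2 values correlated with those of the other 6 at 0.21 to 0.63 over the 9 arrays, while the other 6 correlated with each other at 0.83 to 0.98. The points share arrays and groups, so these values only describe how alike the probe sets were. The suffix _x_at marks probe sets with probes that can match other transcripts, and 4 of the 7 carry it.

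ADAM10, the main alpha-secretase of neurons, was higher in both lines by all 3 of its probe sets. The brightest, 202603_at, read 854, 1444 and 1516 in the 69-kDa line and 1194, 1583 and 1628 in the 82-kDa line, against 624, 610.2 and 583 in wild type. The wild-type arrays lay close together and below all 6 line arrays, and replicate 1 was the lowest array of each line. The log2 difference was 1.02 (SE 0.22, 2.03-fold, limma adjusted p = 0.0074) in the 69-kDa line and 1.26 (SE 0.22, 2.40-fold, adjusted p = 0.0024) in the 82-kDa line.

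The probe set 202604_x_at read 347, 469.9 and 442 in the 69-kDa line and 423, 459 and 523 in the 82-kDa line, against 179, 142 and 186 in wild type. It was 2.48-fold and 2.78-fold higher (limma adjusted p = 0.00026 and 0.00013). The probe set 214895_s_at read 235, 286 and 308 in the 69-kDa line and 249, 374 and 324 in the 82-kDa line, against 116, 106 and 115 in wild type, and was 2.44-fold and 2.77-fold higher (adjusted p = 0.00038 and 0.00018). The 3 probe sets correlated with each other at 0.95 to 0.98 over the 9 arrays, and every call of ADAM10 held under every other setting in which its probe set was fitted (the largest adjusted p was 0.033).

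ADAM17, the alpha-secretase also known as the TNF-converting enzyme, differed less and less surely. Its brightest probe set, 213532_at, read 373, 396 and 405 in the 69-kDa line and 321, 441 and 477 in the 82-kDa line, against 295, 331 and 342 in wild type. The 69-kDa arrays lay above all wild-type arrays, while replicate 1 of the 82-kDa line lay among them. The log2 differences were 0.28 (SE 0.14, limma adjusted p = 0.20) and 0.34 (SE 0.14, adjusted p = 0.12), and the second passed with the replicate block (adjusted p = 0.031). The dim 205746_s_at read 97.95, 87.8 and 78.8 in the 69-kDa line and 91.5, 78.4 and 73.7 in the 82-kDa line, against 70.7, 63.7 and 68.1 in wild type. It rose by 0.38 in the 69-kDa line (SE 0.11, adjusted p = 0.035) and differed by 0.26 in the 82-kDa line (SE 0.11, adjusted p = 0.13; 0.033 with the replicate block). Without replicate 1 or 2 of the 69-kDa line, replicate 2 of the 82-kDa line or any wild-type array, 6 arrays in all, the rise no longer passed (adjusted p up to 0.1165). The third probe set, 205745_x_at, differed by 0.27 and 0.23 (adjusted p = 0.083 and 0.14), and the first of these passed with the block (adjusted p = 0.045).

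BACE2, a protease related to BACE1 that can cut APP within the amyloid-beta stretch, was the member with the largest difference. It was measured by a single probe set, 217867_x_at, whose suffix marks possible matches to other transcripts. It read 114, 88.8 and 96.4 in the 69-kDa line and 103, 83.2 and 87.1 in the 82-kDa line, against 525, 563 and 573 on the arrays labelled wild type. The highest array of either line thus lay far under the lowest wild-type array. BACE2 was 5.57-fold lower in the 69-kDa line (log2 difference -2.48, 95% interval -2.75 to -2.21, limma adjusted p = 1.6e-06) and 6.10-fold lower in the 82-kDa line (-2.61, interval -2.88 to -2.34, adjusted p = 1.2e-06). Both calls held under each of the 18 other settings that kept the probe set. The lines' values lay above the lower quartile of every array, which was 55.9 to 62.7, so BACE2 was dim there but above that bound.

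BACE1, the main beta-secretase of neurons, was measured by 217904_s_at. It read 170.3, 176 and 184 in the 69-kDa line and 204, 169.6 and 148 in the 82-kDa line, against 162, 160.3 and 159 in wild type. The 69-kDa arrays were all above the wild-type arrays by a small margin, and the 82-kDa arrays lay on both sides of them. The log2 difference was 0.14 (95% interval -0.12 to 0.40, limma adjusted p = 0.42) in the 69-kDa line and 0.11 (-0.15 to 0.37, adjusted p = 0.52) in the 82-kDa line. BACE1 passed under none of the 18 other settings in either comparison.

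**Figure D2:**
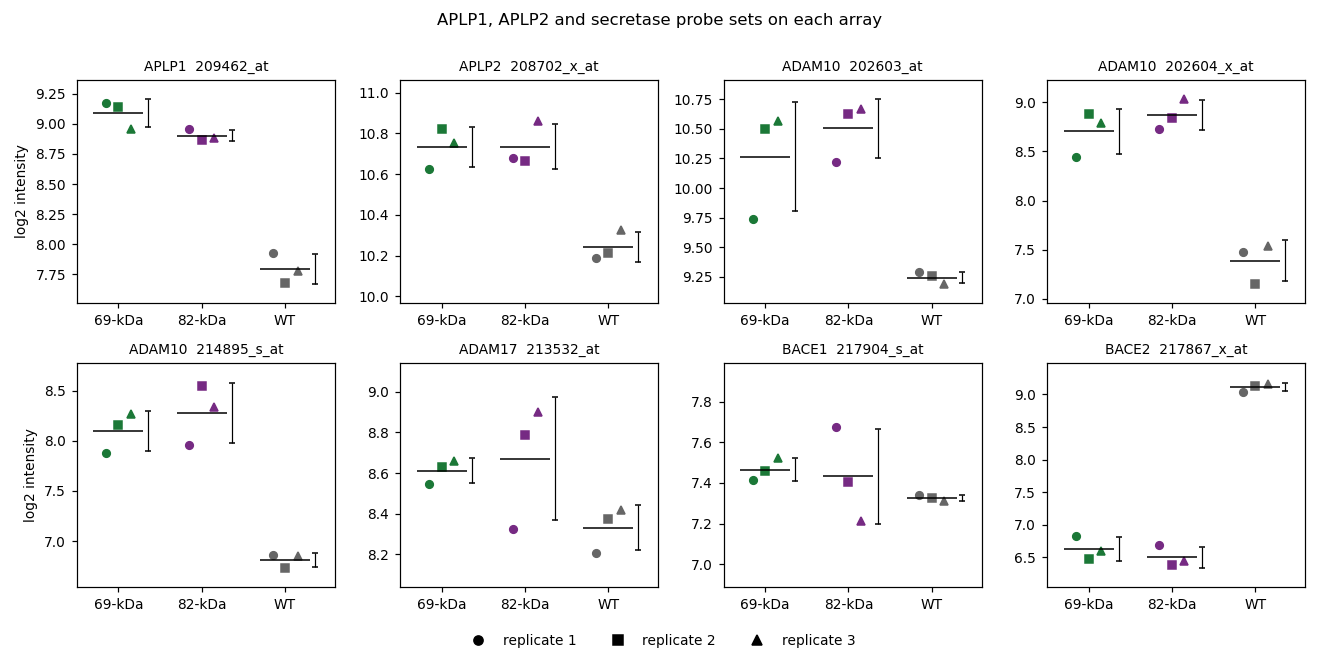
Log2 intensity (y axis) of 8 member probe sets on each of the 9 arrays, by group (x axis: 69-kDa line, 82-kDa line, arrays labelled wild type); points are arrays with the replicate number as shape, lines are group means and bars are SD (n = 3). The line and wild-type arrays do not overlap for APLP1, 208702_x_at of APLP2, the 3 ADAM10 probe sets and BACE2, while BACE1 of the 82-kDa line spans the wild-type arrays.

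PSEN2, a catalytic subunit of gamma-secretase, and NCSTN, the subunit that receives its substrates, passed in neither comparison. The PSEN2 probe set 204262_s_at read 163, 186 and 197 in the 69-kDa line and 215, 183 and 186 in the 82-kDa line, against 197, 189 and 235 in wild type. The groups overlapped, and the log2 differences were -0.19 (95% interval -0.45 to 0.08, limma adjusted p = 0.31) and -0.09 (-0.35 to 0.18, adjusted p = 0.62). The probe set 211373_s_at differed by -0.16 and -0.08 (adjusted p = 0.53 and 0.74). The dim 204261_s_at, at 55.4 to 72.8 on all arrays, differed by -0.03 and 0.03 (adjusted p = 0.86 each). NCSTN, by 208759_at, read 541, 543 and 523 in the 69-kDa line and 543, 506 and 517 in the 82-kDa line, against 543, 678 and 586 in wild type. Replicate 1 of wild type equalled the highest line value and the others lay above it, and the log2 differences were -0.16 (-0.37 to 0.05, adjusted p = 0.25) and -0.20 (-0.41 to 0.01, adjusted p = 0.15). NCSTN passed as lower with gene-by-gene array weights in both comparisons (adjusted p = 0.034 and 0.0098) and on replicates 2 and 3 alone in the 82-kDa comparison (0.029), while PSEN2 passed under no other setting in either comparison.

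APP itself gave a different picture with each of its 3 probe sets. By 200602_at it read 177, 402 and 519 in the 69-kDa line and 165, 454 and 429 in the 82-kDa line, against 363, 641 and 562 in wild type. Replicate 1 was the lowest array of every group, so the groups overlapped, and the log2 differences of -0.61 and -0.68 (SE 0.49 each) did not pass (limma adjusted p = 0.42 and 0.35). Compared within replicate numbers, each line array was below the wild-type array of its number, and with the replicate block both differences passed (adjusted p = 0.033 and 0.0215). By 211277_x_at APP read 148, 199.7 and 177 in the 69-kDa line and 148, 152 and 149 in the 82-kDa line, against 141, 139.9 and 127 in wild type. It was 0.36 higher in the 69-kDa line (SE 0.11, adjusted p = 0.044) and differed by 0.14 in the 82-kDa line (SE 0.11, adjusted p = 0.39). It no longer passed without replicate 2 or 3 of either line or any wild-type array (7 arrays, adjusted p up to 0.1523), nor under 4 other settings, both rescalings among them.

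The brightest APP probe set, 214953_s_at, read 736, 1688 and 1453 in the 69-kDa line and 799.6, 1166 and 927 in the 82-kDa line, against 966, 1341 and 943 in wild type. The 69-kDa arrays enclosed the wild-type arrays, and the log2 differences of 0.19 and -0.17 (SE 0.302 each) did not pass (limma adjusted p = 0.69 and 0.71). Across settings the 69-kDa difference ran from -0.05 to 0.55, and it passed in 1 of the 18 others (lowest limma adjusted p = 0.044). The 82-kDa difference passed in 0 of 18. Over the 9 arrays 200602_at correlated at -0.02 with 211277_x_at and at 0.67 with 214953_s_at, and the last pair, 211277_x_at with 214953_s_at, also at 0.67.

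The APP probe sets were also compared by differences taken within an array, which array scaling cannot move. With 3 arrays against 3 the exact test cannot give a p under 0.1, so these values are descriptions and no such test could pass. The log2 value of 200602_at minus that of 214953_s_at was -2.06, -2.07 and -1.48 in the 69-kDa line and -2.28, -1.36 and -1.11 in the 82-kDa line, against -1.41, -1.07 and -0.75 in wild type. The 69-kDa arrays were all below the wild-type arrays, while the 82-kDa arrays overlapped them. The means differed by -0.796 in the 69-kDa line (exact two-sided permutation p = 0.1) and by -0.51 in the 82-kDa line (exact p = 0.4). The difference of 200602_at from 211277_x_at was 0.26, 1.01 and 1.55 in the 69-kDa line and 0.15, 1.58 and 1.52 in the 82-kDa line, against 1.37, 2.20 and 2.15 in wild type (exact permutation p = 0.2 and 0.3). Set against the wild-type array of the same replicate number, 200602_at minus 214953_s_at was lower in 3 of 3 pairs in each line, by differences of -0.64, -1.01 and -0.74 in the 69-kDa line and -0.87, -0.30 and -0.37 in the 82-kDa line. The same held for 200602_at minus 211277_x_at, with -1.11, -1.19 and -0.59 in the 69-kDa line and -1.21, -0.62 and -0.62 in the 82-kDa line. The exact sign-flip permutation p of each of these was 0.25, the smallest that 3 pairs allow, and the 9 unpaired tests had adjusted values of 0.675 to 0.9. Whether the probe sets disagree beyond their spread cannot be decided by these exact tests with this number of arrays. No other test of it was made, and no single direction is given for APP as a gene.

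**Figure D3:**
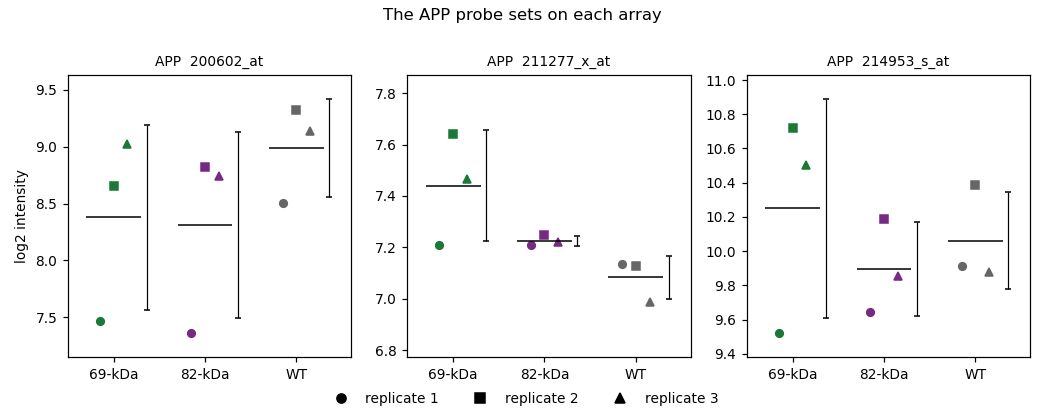
Log2 intensity (y axis) of the 3 APP probe sets on each of the 9 arrays, by group (x axis: 69-kDa line, 82-kDa line, arrays labelled wild type); points are arrays with the replicate number as shape, lines are group means and bars are SD (n = 3). Replicate 1 (circles) is the lowest array of each group for 200602_at, and the level of a probe set cannot be set against that of another.

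Between the lines themselves, no member passed the test. Of the 23 member probe sets 0 passed in the 82-kDa line set against the 69-kDa line, where 0% of all probe sets were called, and 0 had an unadjusted limma p under 0.05, against 733 of the 22215. The groups overlapped for all 23 member probe sets, where 6.84% of all probe sets did not overlap. The log2 differences ran from -0.35 for 214953_s_at of APP (95% interval -1.04 to 0.33) to 0.24 for 208701_at of APLP2 (-0.04 to 0.52). ADAM10 was 0.24, 0.16 and 0.18 higher on average in the 82-kDa line by its 3 probe sets, with intervals that all took in 0 and reached up to 0.73 at most. APLP1 differed by -0.19 (-0.40 to 0.02), BACE2 by -0.13 (-0.40 to 0.14) and BACE1 by -0.03 (-0.29 to 0.22). The interval was narrowest for APLP2 (208702_x_at, 0.0014, from -0.20 to 0.21) and widest for APP (200602_at, -0.07, from -1.18 to 1.05). This comparison also tests the gap between the lines' 2 differences from wild type. The members' order by group was therefore wild type lowest with both lines above it for ADAM10, APLP1 and 208702_x_at of APLP2. For BACE2 both lines were below wild type, and no member difference between the lines passed. CHAT itself was not called between the lines either, at 256, 175 and 177 in the 69-kDa line against 1066, 423 and 1067 in the 82-kDa line. It passed there under 2 of 18 other settings. The absence of calls thus does not show that the lines are alike.

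The members differed in how replicate 1 of a group compared with replicates 2 and 3. The largest shift was that of 200602_at of APP, whose replicate 1 minus the mean of replicates 2 and 3 was -1.37 on the log2 scale in the 69-kDa line, -1.42 in the 82-kDa line and -0.73 in wild type. In all, 9 of the 23 member probe sets were lower in replicate 1 in all 3 groups and 4 were higher, against 4965 and 7617 of all 22215. Of the 7 APLP2 probe sets 5 were lower and 1, 208701_at, higher in all groups. The ADAM10 probe sets shifted in the lines (by -0.79, -0.39 and -0.34 in the 69-kDa line and by -0.43, -0.21 and -0.49 in the 82-kDa line) and by 0.07, 0.14 and 0.06 in wild type.

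**Figure D4:**
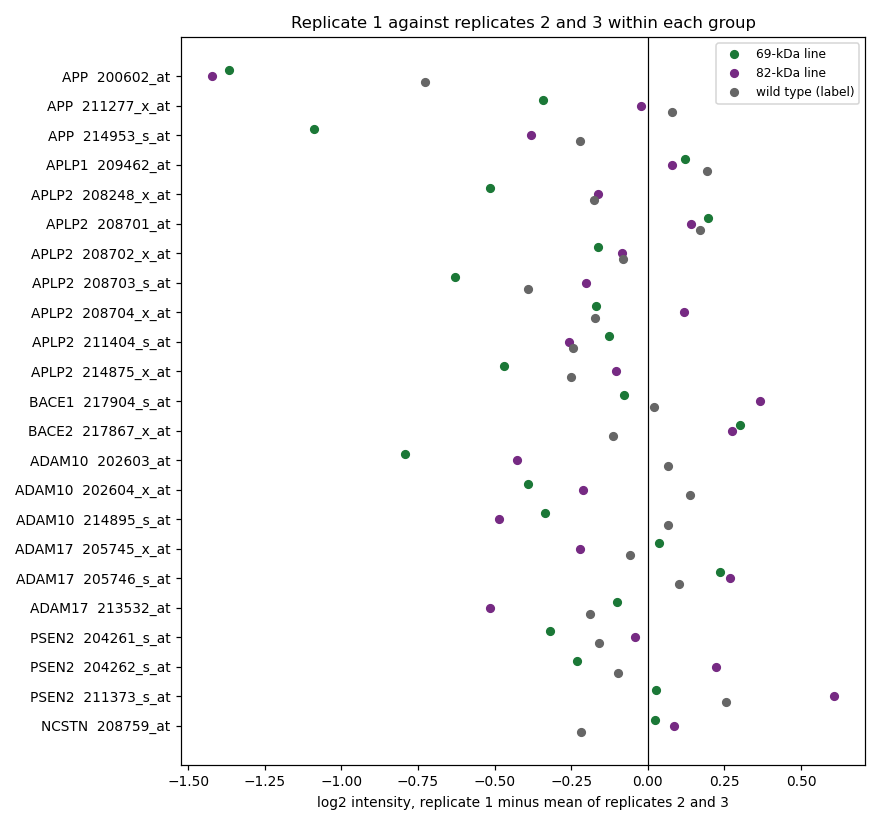
Log2 intensity of replicate 1 minus the mean of replicates 2 and 3 (x axis) for each of the 23 member probe sets (rows) in the 69-kDa line (green), the 82-kDa line (purple) and the arrays labelled wild type (grey). The first row, 200602_at of APP, lies furthest to the left in all 3 groups (-1.37, -1.42 and -0.73).

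Genes around the members were each taken by their brightest probe set, and their counts stand against the same choice over all 11963 genes named alone. Of these genes 29.4% were called in the 69-kDa line (11.7% higher, 17.7% lower) and 30.3% in the 82-kDa line (11.8% higher, 18.5% lower). With the replicate block the shares were 40.3% (17.4% higher, 22.9% lower) and 42.0% (18.3% higher, 23.6% lower). The counts of the lists are descriptions, and no list was tested against these shares.

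The other measured subunits of gamma-secretase moved both ways. Of 3 such genes 1 rose and 1 fell in each line, with and without the block. APH1B, a scaffold subunit, read 196 to 210.4 in the 69-kDa line and 196 to 215 in the 82-kDa line, against 131 to 144 in wild type (1.47-fold and 1.49-fold higher, limma adjusted p = 0.00080 and 0.00068). PSENEN, the smallest subunit, read 391 to 513 and 354 to 537 in the lines, against 939 to 1277 in wild type (2.49-fold and 2.51-fold lower, adjusted p = 0.0011 each). APH1A differed by 0.36 and 0.25 on the log2 scale and did not pass.

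A list of activators, inhibitors and escorts of the alpha- and beta-secretases, with relatives of such genes, had 26 measured genes. A place on it does not show that a gene acts on ADAM10 or ADAM17. Of these genes 6 rose and 6 fell in the 69-kDa line, and 6 rose and 7 fell in the 82-kDa line. With the block the counts were 8 and 7 in the 69-kDa line and 8 and 9 in the 82-kDa line. RTN4, a reticulon, passed with it and not without it (0.56 and 0.64 on the log2 scale, block adjusted p = 0.0018 and 0.00092). RTN3, another reticulon, did so in the other direction (-0.29 and -0.25, block adjusted p = 0.029 and 0.0498). RTN2 rose with and without it (1.66-fold and 1.59-fold, limma adjusted p = 0.0024 and 0.0040). RTN2, RTN3 and RTN4 were named after their values were seen. So were SFRP1 and FURIN, which also passed in both lines. SFRP1 was 2.84-fold and 5.02-fold higher (limma adjusted p = 0.019 and 0.0020), and FURIN was 2.14-fold and 1.88-fold lower (0.00010 and 0.00029). TIMP2, a metalloprotease inhibitor listed by its family, was 2.88-fold and 3.38-fold higher. RTN1, a reticulon (a family that can bind BACE1), was 9.21-fold and 14.3-fold higher. ITM2C, a relative of the APP-binding protein ITM2B, was 2.02-fold and 2.19-fold lower, and PCSK5, a proprotein convertase, was about 2.51-fold and 2.49-fold lower at only 35.0 to 38.0 in the lines. The largest limma adjusted p of TIMP2, RTN1, ITM2C and PCSK5 was 0.00021. The relatives of TIMP2, named after their values were seen, did not move with it in both lines. TIMP1 was 6.87-fold and 6.17-fold lower (adjusted p = 0.0069 and 0.0093). TIMP3 did not pass (adjusted p = 0.12 and 0.76), but rose in the 69-kDa line with the block (adjusted p = 0.035). Of 6 other ADAM genes with a zinc-binding motif 0 rose and 2 fell in each line. With the block ADAM12 also rose in the 82-kDa line (0.31, adjusted p = 0.045). ADAM9, which can also act as an alpha-secretase, was 2.45-fold and 3.45-fold lower (adjusted p = 0.0064 and 0.0011), and ADAM15 was 1.35-fold and 1.44-fold lower (0.042 and 0.018). The ADAM15 call did not survive the removal of replicate 2 or 3 of either line or of any wild-type array in the 69-kDa comparison (7 arrays, adjusted p up to 0.1397). In the 82-kDa comparison replicate 3 of the 82-kDa line and replicate 1 of wild type had this effect (adjusted p up to 0.06537).

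Of 12 measured adaptors that bind the cytoplasmic tail of the APP family, 4 rose in the 69-kDa line, 5 rose in the 82-kDa line, and 0 fell in either. With the block 5 and 6 rose. KLC1, a light chain of the motor kinesin, was 2.98-fold and 2.72-fold higher (limma adjusted p = 1.2e-05 and 2.0e-05). MAPK8IP1, a kinase scaffold, was 1.55-fold higher in each line, APBA2 (also called MINT2) 1.64-fold and 1.52-fold, and SHC1, a signalling adaptor, 2.59-fold and 2.14-fold. SHC1 did not pass in the 82-kDa line without its replicate 2 or 3 or without any wild-type array (5 arrays, adjusted p up to 0.09209).

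Substrates of the beta-secretases and of the alpha-secretases were counted apart. Each gene was placed in only 1 of these lists, and whether the other kind of secretase also cuts it was not considered. The counts and medians depend on that placing. Of 13 measured substrates of BACE1 or BACE2, 6 rose and 1 fell in each line, and the counts were the same with the block. Their median log2 difference was 0.41 and 0.39. The median over all probe sets, rather than 1 per gene, was 0.06 in each comparison, and none was taken over genes. L1CAM, a neural adhesion molecule, read 624 to 915 and 519 to 764 in the lines, against 104 to 138 in wild type (6.29-fold and 4.93-fold higher). SEZ6L2 was 3.85-fold and 3.57-fold higher, ST6GAL1, a sialyltransferase, 2.49-fold and 2.33-fold, and SEZ6L 2.16-fold and 2.05-fold. JAG1, a Notch ligand, was the gene that fell (3.10-fold and 4.98-fold lower) and was named after its values were seen. NCAM1 and EFNA5, named next, were also picked after their values were seen. Of 27 measured substrates of ADAM10 or ADAM17, 1 (NCAM1) rose and 9 fell in the 69-kDa line, and 2 (NCAM1 and EFNA5) rose and 11 fell in the 82-kDa line, with a median of -0.23 and -0.25. With the block 2 rose and 11 fell in the 69-kDa line, and 3 rose and 13 fell in the 82-kDa line. SDC4, a syndecan, read 51.3 to 58.9 and 48.8 to 51.0 in the lines, against 237 to 280.1 in wild type, about 4.79-fold and 5.14-fold lower. NOTCH2 was 4.54-fold and 4.06-fold lower, ALCAM, an adhesion molecule, 4.27-fold and 3.96-fold, and CDH1, E-cadherin, about 3.12-fold and 3.10-fold at 24.1 to 29.3 in the lines. The largest limma adjusted p among these 4 was 0.00036. CDH1 is also a member of the epithelial marker list, whose summed level differed between the lines and wild type as given above; its part in these counts was not tested. None of the genes of these lists passed between the lines (0 of 26, 12, 13 and 27 genes in the larger lists), where 0% of all probe sets did.

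The genes most like BACE2 in their log2 values over the 9 arrays were PAWR (Pearson r = 0.999), RNPEP (0.999) and NR3C1, the glucocorticoid receptor (0.9987). PAWR read 38.0 to 50.7 in the 69-kDa line and 35.4 to 49.3 in the 82-kDa line, against 591 to 702 in wild type. The genes most like APLP1 were GYG2 (0.993), IDH2 (0.993) and HK2 (0.993), and GYG2 read 248 to 275 and 224 to 264 in the lines, against 66.2 to 86.3 in wild type. The points share arrays and groups, so these values are a description, and 999 named probe sets correlated above 0.95 with BACE2 and 368 with APLP1.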

How the data were processed

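Single-channel arrays of 9 samples were analysed, grouped by their titles. The authors deposited intensities on a linear scale made with RMA, per the submitters' processing notes; no version is named there. Array medians were 133.7 to 142.7. The number of arrays limits the precision, and so does the shift of replicate 1. With the replicate block the SE of 200602_at of APP against wild type went from 0.49 to 0.18. The 68 control probe sets were left out and 22215 tested. Probe sets were named from the platform annotation where it gave 1 symbol (19065; 1043 had several and 2107 none).

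Log2 intensities were fitted with limma 3.58.1 in R 4.3.3 (3 group means over 9 arrays, eBayes, two-sided), with Benjamini-Hochberg adjustment over all probe sets of a contrast; the fit was tested on simulated data. Other arithmetic used Python 3.11.15 and scipy 1.17.1. All members were reported. Listed genes were represented by their brightest probe set, and up to 4 called genes per list with the smallest adjusted p were named. Members and lists were chosen with earlier results of these data known.

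Arrays that share a replicate number deviated together from their group means (r from 0.278 to 0.573 over the 9 pairs), so the numbers were taken to pair arrays. Replicates 2 and 3 of different groups also deviated together (0.209 to 0.475 over 6 pairs), while replicate 1 ran against both (-0.594 to -0.279 over 12 pairs). The 3 deviations of a group sum to 0, so a shared shift of replicate 1 alone can give such signs. The data thus set apart replicate 1 only, and the pairing of numbers 2 and 3 rests on the labels. Blocked values stand beside the members and list counts they change. Alternatives were scaling, an added 16, filters, variance settings, weights, subsets of arrays, each array left out, and a stricter threshold.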

Additional observations from a re-analysis of the deposited data

How the results depend on the processing

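The 10 calls among 23 member probe sets in each line against wild type are given here with the share of all probe sets called in the same fit. Median centring gave 8 (25.6% of all in the 69-kDa comparison) and 8 (26.0% in the 82-kDa comparison), quantile normalization again 12 (27.9%) and 12 (28.6%), the replicate block 15 (36.5%) and 15 (38.2%), and replicates 2 and 3 alone 14 (39.0%) and 15 (39.6%). Without _x_at and _s_at probe sets 6 member probe sets remained, of which 2 (against 2712 of all 11813) and 3 (against 2780) were called. An adjusted p under 0.01 left 6 (17.4%) and 6 (17.2%). Without dim probe sets 19 member probe sets remained, of which 10 (37.4%) and 9 (37.9%) were called. Gene-by-gene array weights, added after seeing the data because the planned default weights did not converge and were not run, gave 16 (43.0%) and 14 (42.8%), and 2 between the lines (214895_s_at of ADAM10 and 211277_x_at of APP, 7.67%), where every other setting gave 0; the cause was not tested. Leaving out 1 array gave 6 to 12 calls in either line (20.1% to 30.3% and 21.1% to 29.7%) and 0 between the lines. The count was 6 without replicate 2 of the 69-kDa line (20.1%) or replicate 1 of wild type (22.5%) in the 69-kDa comparison, and without replicate 3 of the 82-kDa line (23.1%) in the other. No single member's call turned to the other direction under the settings run. The within-array difference of 200602_at from 214953_s_at was below 0 in every setting, at -0.9889 to -0.6316 in the 69-kDa line and -0.7463 to -0.1635 in the 82-kDa line with 1 array left out. The difference of 200602_at from 211277_x_at ran from -1.2707 to -0.6224 and from -1.0857 to -0.3513. That of 214953_s_at from 211277_x_at ran from -0.3024 to 0.0811 and from -0.4423 to -0.1653, so its sign in the 69-kDa line rests on single arrays. Dim probe sets and 3 arrays a group limit all of these.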

Other observations

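Some deposited values were exactly the same on several arrays. NCSTN stood at 542.567 on 3 arrays, PSEN2 (204261_s_at) at 65.699 on 3, and ADAM17 (205745_x_at) at 88.0657 on 2, in each case on arrays of different groups. Such a tie occurred in 3 of the 23 member probe sets (13.0%) and in 7612 of all 22215 (34.3%).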
